A study of Mus musculus with 34 samples.

Results

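The comparison set 9 mouse liver libraries whose ribosomal RNA (rRNA) had been removed by probe hybridisation and pull-down against 3 liver libraries that received no selection. They were chosen by their titles and form 12 of the 34 libraries of the series. All came from RNA of the liver of 1 wild-type C57BL/6J mouse, 12 weeks old, whose sex the labels give in 2 contradictory ways. The libraries are therefore repeated preparations of one RNA, and the p-values below measure the spread between preparations, not between animals. Both groups were prepared by the stranded TruSeq total RNA method, with 13 PCR cycles. The pull-down libraries started from 200 ng of RNA and covered every combination of slow, medium and fast PCR ramp with short, medium and long fragments, 1 library each. The unselected libraries started from 20 ng, skipped rRNA removal, and all had a slow ramp and medium fragments, so input amount and pull-down cannot be told apart. A further 9 liver libraries, whose rRNA was digested enzymatically after binding to DNA probes and which covered the same ramp rates and fragment lengths, served as a second reference because they also started from 200 ng.

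Ribosomal RNA makes up most of the RNA of a cell. The nuclear genome encodes the 18S, 28S, 5.8S and 5S rRNAs of the cytosolic ribosome, and the mitochondrial genome encodes the 12S and 16S rRNAs of the mitochondrial ribosome. In a pull-down, tagged probes complementary to rRNA hybridise to total RNA, and beads carry the probes away with whatever is bound to them, so other transcripts pass through only if no probe holds them. Unlike selection by the poly(A) tail, this keeps RNAs without a tail, such as small nucleolar RNAs.

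The unselected libraries held 19873390 to 20475985 counts, of which 84.8 to 85.1% fell on rRNA and on Lars2, a gene read here together with the rRNA, and left 3013922 to 3043505 for all other genes. The pull-down libraries held 23376037 to 39186257 counts and 19856011 to 32165740 outside rRNA, with 1 exception. The slow-ramp, long-fragment library held 1126383 counts, and 14.8% of them were nuclear rRNA transcripts and Lars2 (Wilson 95% interval 14.7 to 14.8%, counting error only), against a median of 0.0184% over all 9 pull-down libraries. It is called the low-depth library, and values without it are given where it changed the call of a named gene, or moved a printed fold change against unselected RNA or a printed list median by more than 1.5 times. Hepatocyte markers made up 7.57 to 9.90% of the counts outside rRNA after pull-down and 8.32 to 8.41% in unselected RNA, whereas none of 5 cardiomyocyte markers had enough counts to be tested.

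Levels are given as normalised CPM, that is CPM computed after each library size was scaled by the TMM method, which sets most genes equal between libraries. The scaled size of an unselected library is well below its total, since most of that total is rRNA, so the most abundant RNA takes very large values on this scale. A gene was called changed when its Benjamini-Hochberg adjusted p in edgeR's quasi-likelihood test was under 0.05. Of 15422 genes tested, 2692 (17.5%) were higher and 2360 (15.3%) lower after pull-down, and 190 and 615 of them changed at least 2-fold. Without the low-depth library the counts were 2925 and 2464, and with the 12 libraries fitted alone they were 1150 and 1663. DESeq2 with its own size factors gave 2038 higher and 2922 lower genes. The values of the 9 and the 3 libraries did not overlap for 3659 genes (23.7%). The median log2 fold change of all genes was 0.06. Dividing by plain library totals instead moved that median to 2.31 and gave 14635 higher and 42 lower genes, so every direction below is relative to the bulk of genes. Against digestion, pull-down was higher for 5553 genes (36.0%) and lower for 5347 (34.7%).

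Pull-down removed the nuclear rRNA transcript and the Lars2 signal almost completely, removed part of the mitochondrial 12S rRNA, and gave no change that passed the test in the 16S rRNA. The rRNA-typed gene CT010467.1 lies at chr17:39846353-39848827 on the minus strand of GRCm38, where RefSeq places the 18S rRNA gene Rn18s-rs5. Its level was 3051800, 2922560 and 2944810 normalised CPM in the 3 unselected libraries, and in the pull-down libraries it ran from 78.1 through a median of 147 to 117055. The highest value belonged to the low-depth library, the other 8 lay between 78.1 and 199, and no pull-down library reached an unselected one. The log2 fold change was -9.88 ± 1.74 (SE, adjusted p = 3.5e-05), and -14.32 without the low-depth library. CT010467.1 shares 1244 bases in reverse complement with the annotated gene Gm42418, so the 2 names describe opposite strands of one sequence. The 28S rRNA has no rRNA-typed transcript in the annotation used here.

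Lars2 encodes the mitochondrial leucyl-tRNA synthetase, and it is read with the rRNA here because its level followed that of CT010467.1 from group to group. Its unselected levels were 374881, 366706 and 354764 normalised CPM. After pull-down its level was 8.63 at the lowest, 14.4 at the median and 18849 in the low-depth library, and 18.6 at most in the other 8. The groups did not overlap, and Lars2 fell by 9.71 on the log2 scale (SE 1.80, adjusted p = 7.0e-05) and gave -14.49 without the low-depth library. After digestion its median was 69.7, and pull-down differed from digestion by -0.09 on the log2 scale with the low-depth library (adjusted p = 0.964) and by -2.65 ± 0.22 without it (SE, adjusted p = 6.1e-12). The other 8 pull-down libraries all lay below the lowest digestion library, at 51.9.

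The 12S rRNA, mt-Rnr1, stood at 103118, 119677 and 107044 normalised CPM in unselected RNA and between 16089 and 32110 after pull-down, with a median of 20850. All 9 pull-down libraries were below all 3 unselected ones, and mt-Rnr1 fell by 2.40 on the log2 scale (SE 0.16, adjusted p = 4.4e-13). The 16S rRNA, mt-Rnr2, stood at 118322, 137170 and 125614 in unselected RNA and at 68434, 136952 and 194347 (lowest, median, highest) after pull-down. The groups overlapped, and the difference was 0.03 ± 0.27 (SE, adjusted p = 0.949), or 0.20 without the low-depth library (adjusted p = 0.499). Against digestion, where mt-Rnr2 ran from 184 to 438, pull-down was higher by 8.85 on the log2 scale (SE 0.23, adjusted p = 1.8e-24), and mt-Rnr1 was higher by 4.73. Mitochondrial rRNA took 9.76 to 23.5% of all counts after pull-down, 5.17 to 6.15% in unselected RNA and 0.130 to 0.237% after digestion.

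**Figure D1:**
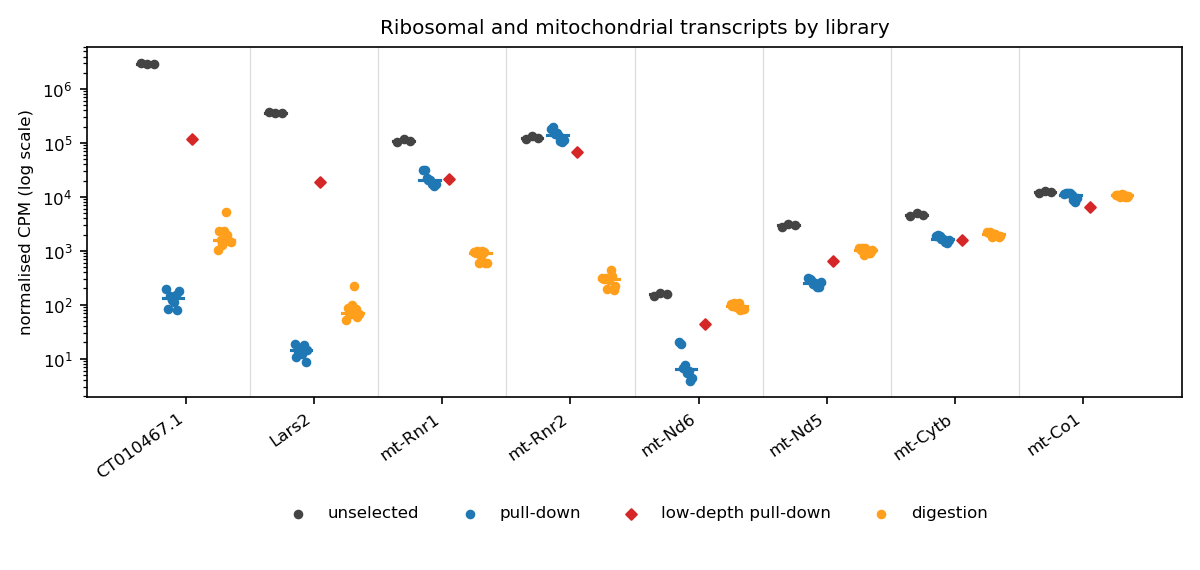
Normalised CPM (log scale) of nuclear and mitochondrial rRNA transcripts, Lars2 and 4 mitochondrial mRNAs in each library; black points are the 3 unselected, blue the 8 deeper pull-down, red diamonds the low-depth pull-down and orange the 9 digestion libraries, and bars are medians. CT010467.1 and Lars2 lie lowest in the deeper pull-down libraries, mt-Rnr2 overlaps between pull-down and unselected libraries, and mt-Nd6 and mt-Nd5 are lower in every pull-down library than in any unselected one.

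Most mitochondrial mRNAs fell with pull-down. These 13 messengers encode subunits of complexes I, III, IV and V of the respiratory chain, and most of them are cut from the same long precursors as the mitochondrial rRNAs. None rose (against 17.5% of all genes) and 8 of 13 fell (61.5%, against 15.3%), with a median log2 fold change of -1.50. By plain library totals the median was 0.76, which is 1.54 below that of all genes. Of the 7 complex I messengers, mt-Nd1, mt-Nd2, mt-Nd4, mt-Nd4l, mt-Nd5 and mt-Nd6 fell, with log2 fold changes of -1.09 to -4.29, while mt-Nd3 gave -0.01 (adjusted p = 0.998). Of the ATP synthase messengers, mt-Atp8 fell by 1.82 ± 0.38 (adjusted p = 3.2e-04) with overlapping groups and mt-Atp6 did not pass, nor did any of the 3 cytochrome c oxidase messengers.

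The largest of these falls was that of mt-Nd6, the messenger encoded on the opposite strand to the others, at chrM:13552-14070. It had 145, 168 and 157 normalised CPM in unselected RNA and 3.85, 6.83 and 43.3 (lowest, median, highest) after pull-down, the highest being the low-depth library. The groups did not overlap, and the log2 fold change was -4.29 ± 0.35 (SE, adjusted p = 2.2e-11). mt-Nd5, whose gene overlaps the end of the mt-Nd6 gene on the opposite strand, went from 2785, 3170 and 2962 to 212, 260 and 637, a log2 fold change of -3.41 ± 0.16 (adjusted p = 4.4e-17). Again every pull-down library was below every unselected one. mt-Cytb, a subunit of complex III, went from 4453, 4943 and 4625 to between 1405 and 1925 with a median of 1676, a log2 fold change of -1.50 ± 0.09 (adjusted p = 6.5e-14).

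mt-Co1, the catalytic subunit of complex IV, had 11872, 12976 and 12150 normalised CPM in unselected RNA and between 6348 and 12033 after pull-down. The groups overlapped and the log2 fold change of -0.32, or -0.21 without the low-depth library, did not pass the test (adjusted p = 0.150 and 0.206), but it did with only the 3 medium-fragment pull-down libraries (-0.19, adjusted p = 0.0032). Only 36.1% of the 31-base words of mt-Co1 are its own, since nuclear copies of mitochondrial DNA repeat its sequence, and for mt-Co2, mt-Co3, mt-Atp6 and mt-Nd3 the share is at most 1.89%, so their counts depend on how reads were divided. These 5 are the messengers that did not pass, but the share was as low for 2 that fell without overlap, mt-Nd4 (37.2%, log2 fold change -2.98) and mt-Nd4l (1.12%, -3.71). Against digestion 7 of the 13 were lower after pull-down and none higher. Among them mt-Nd6 was lower by 3.48, mt-Nd5 by 1.81 and mt-Cytb by 0.26 on the log2 scale. Of those that fell against unselected RNA, mt-Nd1 and mt-Atp8 did not pass against digestion (0.16 and -0.13, adjusted p = 0.086 and 0.632). After digestion itself mt-Nd6 ran from 78.6 to 109 normalised CPM, mt-Nd5 from 829 to 1139 and mt-Cytb from 1824 to 2261. These ranges also lay below every unselected library. The 13 combined took 1.79 to 3.52% of the counts outside rRNA after pull-down, 4.85 to 5.58% in unselected RNA and 3.41 to 3.95% after digestion.

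Among small structured RNAs more rose than fell with pull-down, and most did not pass the test. Small nucleolar RNAs (snoRNAs) guide the chemical modification of rRNA, and small Cajal body RNAs (scaRNAs) that of spliceosomal RNAs. By annotated type, 19 of 57 snoRNAs rose and 3 fell (median log2 fold change 0.96), 4 of 11 scaRNAs rose and none fell, and 5 of 20 small nuclear RNAs rose and 1 fell. The shares that rose, 33.3, 36.4 and 25%, compare with 17.5% of all genes. With genes at 0 in every unselected library set to the fold that 3 counts per library would give, the 3 medians were 0.90, 0.79 and 0.61. In the list of 26 named snoRNAs and scaRNAs with enough counts, 9 rose and none fell, and all 26 were higher than after digestion, by a median of 3.17 on the log2 scale. With the unselected libraries of batch 1 as the reference the list's median was 0.55 rather than 0.99. Their host genes, from whose introns most snoRNAs are cut, rose in 3 of 15 cases (20.0%, against 17.5% of all genes) and fell in none.

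The 2 snoRNAs with the largest rises among those with mostly unique sequence are shown in full, because they head the gains of this class, and in capitals is the ACA trinucleotide that lies 3 bases before the end of an H/ACA box snoRNA. Gm25394 lies at chr13:49684301-49684433 and Gm25117 at chr10:111481493-111481636, both on the plus strand of GRCm38.
Gm25394: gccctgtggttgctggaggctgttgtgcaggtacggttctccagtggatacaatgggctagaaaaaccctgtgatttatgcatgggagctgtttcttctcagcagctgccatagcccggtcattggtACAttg
Gm25117: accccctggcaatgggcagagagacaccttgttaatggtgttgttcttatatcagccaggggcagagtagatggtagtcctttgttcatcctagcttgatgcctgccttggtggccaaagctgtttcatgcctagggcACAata
Gm25394, of 133 bases, had 0.209, 0.417 and 0.419 normalised CPM in unselected RNA, which are 1, 2 and 2 counts, and 2.45, 3.86 and 11.2 (lowest, median, highest) after pull-down. All pull-down libraries were higher. The ratio of the pooled levels was 16.2, with an exact 95% interval of 6.92 to 49.9 for counting error, and the adjusted p was 9.7e-07. Gm25117, of 144 bases, went from 1.88, 3.13 and 2.10 to 6.54, 7.55 and 22.1, without overlap (log2 fold change 1.95 ± 0.44, adjusted p = 7.4e-04). Its level after digestion was 0.200 to 0.630, below both.

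Scarna13 rose from 15.7, 17.1 and 12.2 normalised CPM to between 29.4 and 71.2 with a median of 32.3 (log2 fold change 1.06 ± 0.15, adjusted p = 1.6e-06). Snora73a, a snoRNA needed for early rRNA processing, rose from 9.84, 14.0 and 14.5 to between 61.3 and 190 with a median of 79.3. Its log2 fold change was 2.72 ± 0.32 (adjusted p = 4.8e-08), but only 14.9% of its sequence words are its own. In both snoRNA and scaRNA examples all 9 pull-down libraries exceeded all 3 unselected ones. Among RNAs made by RNA polymerase III and related structural RNAs, 4 of 10 rose (40.0%, against 17.5% of all genes) and none fell. Their median log2 fold change was 0.74, or 0.46 without the low-depth library. It was 0.23 with the 1 gene at 0 in unselected RNA set to its 3-count bound. Rn7sk, the 7SK RNA that holds the elongation factor P-TEFb inactive, had 4009, 3623 and 3833 in unselected RNA and 6395, 6966 and 17110 after pull-down, the highest in the low-depth library. It rose by 0.99 ± 0.17 on the log2 scale (adjusted p = 1.6e-05) and by 0.82 without that library. Rn7s1, a copy of the signal recognition particle RNA with no word of its own, rose by 1.33 and was also higher than after digestion, by 1.76. Rpph1, the RNA of ribonuclease P, rose by 1.12 (adjusted p = 0.0023) with overlapping groups, and did not pass with the 12 libraries fitted alone (1.24, adjusted p = 0.091). The polymerase III list took 8.25 to 15.2% of the counts outside rRNA after pull-down, 4.12 to 4.86% in unselected RNA and 3.48 to 4.43% after digestion.

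Nuclear long noncoding RNAs went the other way. In a list of 10, none rose and 6 fell (60.0%, against 15.3% of all genes). Their median log2 fold change was -0.64 (1.62 by plain library totals, 0.69 below the median of all genes). Malat1, which accumulates in nuclear speckles, had 3687, 3953 and 3752 normalised CPM in unselected RNA and between 1622 and 2452 after pull-down. Neat1, the scaffold of paraspeckles, had 615, 602 and 602 against 267 to 347. Neither showed any overlap, and they fell by 0.99 ± 0.11 (adjusted p = 6.3e-09) and 1.08 ± 0.05 (adjusted p = 1.4e-16) on the log2 scale. After digestion both were higher than after pull-down, by 0.67 and 1.02. Kcnq1ot1, an imprinted antisense RNA that silences its neighbours, fell by 0.73 ± 0.09, and Jpx, a regulator of X inactivation, fell by 1.84 ± 0.19 from 8.16, 10.4 and 11.3 to between 1.63 and 3.36.

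By annotated type, none of 142 tested transcripts lying within introns of other genes rose and 38 fell, with a median of -0.86, and 12 of 397 long intergenic RNAs rose and 53 fell. The shares that fell, 26.8% and 13.4%, compare with 15.3% of all genes. Ppnr, an intronic transcript in this class, fell by 2.14 from 6.70, 6.88 and 5.87 normalised CPM to a median of 1.26. It had no count in the low-depth library, where 3 counts correspond to 2.45 normalised CPM, and was detected in the other 8, none of which reached an unselected one. AC117816.1, a long intergenic RNA at chr19:31950084-31952361, fell by 2.90 ± 0.20 (adjusted p = 6.3e-13) from 52.5, 59.2 and 58.2 to between 4.57 and 10.6, and was lower than after digestion by 3.30.

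**Figure D2:**
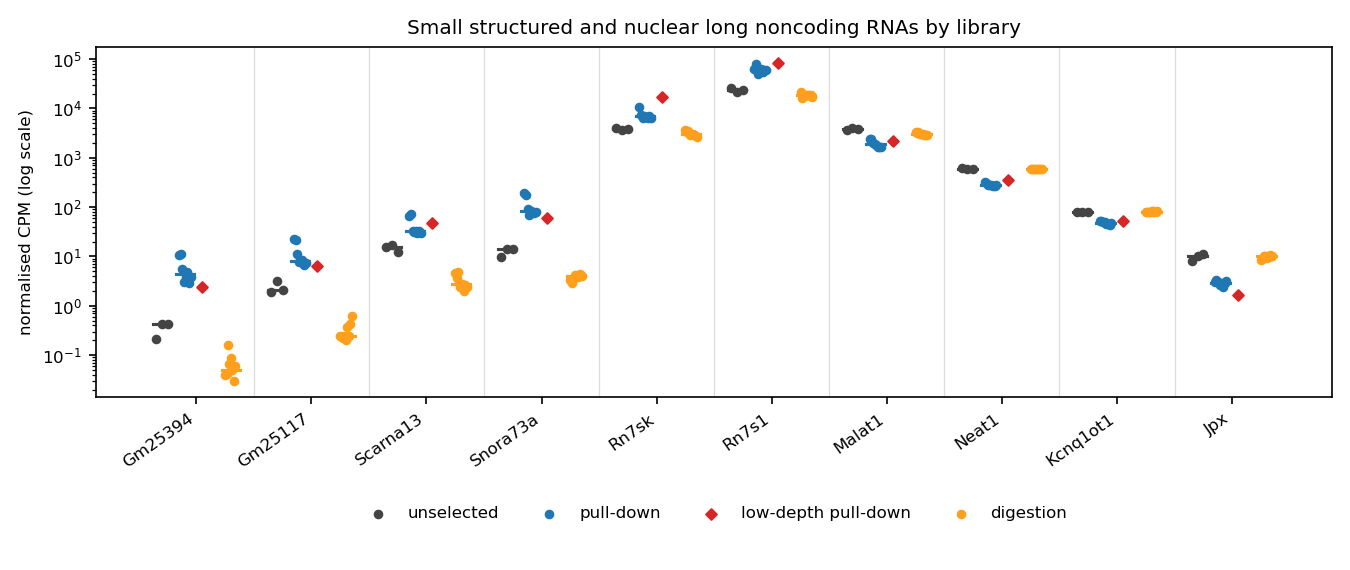
Normalised CPM (log scale) of 6 small structured RNAs and 4 nuclear long noncoding RNAs in each library, with colours and bars as in the plot of ribosomal transcripts. The 6 small RNAs on the left are higher in every pull-down than in any unselected library, whereas Malat1, Neat1, Kcnq1ot1 and Jpx are lower in all 9 pull-down libraries than in all 3 unselected and all 9 digestion libraries.

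Protein-coding transcripts were also lost, and short stretches from 4 of them are shown first because such repeats were counted across the losses. They are printed 5′ to 3′ along the transcript. In each stretch the capitals mark bases inside 1 of 4 words of 12 bases found often among the losses, and in Zfhx3 the 12 bases before the capitals are a second of these words, the one marked in Pcbp1. The stretches are Kmt2d at chr15:98849606-98849635 (minus strand, exon 35, coding), Setd1b at chr5:123168253-123168282 (plus, exon 17, 3′ UTR), Pcbp1 at chr6:86526080-86526109 (minus, exon 1, 5′ UTR) and Zfhx3 at chr8:108703806-108703835 (plus, exon 7, 5′ UTR), all in GRCm38.
Kmt2d: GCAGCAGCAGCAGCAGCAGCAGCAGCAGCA
Setd1b: aagcccctggcttctccaCCCCCACCCCCA
Pcbp1: gtcccgctcgcccccgtcGCCGCCGCCGCC
Zfhx3: gccgccgccgccTCCTCCTCCTCCTCCTCC

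Beyond Lars2 and the mitochondrial genes, Setd1b, Taf15, Fam98b and Stambp were among the largest falls of coding genes with at least 80% unique sequence and a mean of at least 5 normalised CPM in unselected RNA, chosen from those whose groups do not overlap. Taf15, a factor that associates with the general transcription machinery, had 28.5, 30.6 and 33.3 normalised CPM in unselected RNA and 3.92, 4.46 and 18.8 (lowest, median, highest) after pull-down, and fell by 2.66 ± 0.13 on the log2 scale (SE, adjusted p = 4.6e-16). The highest pull-down value was that of the low-depth library, which lay between the other 8 and the unselected libraries. Setd1b, a methyltransferase for histone H3 lysine 4, went from 57.3, 52.5 and 54.7 to between 7.35 and 26.2 with a median of 8.56, a log2 fold change of -2.67 ± 0.14. Fam98b, a subunit of the tRNA ligase complex, fell by 2.64 from 5.23, 6.88 and 5.87 to a median of 0.847, and Stambp, a deubiquitinase, fell by 2.64 from 8.58, 10.2 and 10.3 to a median of 1.56. These 4 were also lower than after digestion, by 1.45 to 3.05.

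The following genes lie outside the rule used to choose named genes and were picked after their values were seen, because they carry the repeats or encode related proteins. The histone methyltransferase Kmt2d went from 139, 132 and 145 normalised CPM to 29.9, 39.0 and 107, a log2 fold change of -1.78. Zfhx3, a transcription factor with many zinc fingers and homeodomains, fell by 1.74. In both the low-depth library held the highest pull-down value and the groups did not overlap.

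Pcbp1 and Pcbp2, which bind poly(C) RNA, fell by 2.15 ± 0.14 and 2.24 ± 0.09 on the log2 scale. Pcbp2 went from 96.3, 102 and 107 normalised CPM to 19.4, 20.7 and 42.5. The poly(A)-binding protein gene Pabpc1 went from 158, 179 and 163 to 45.4, 47.5 and 71.9, a log2 fold change of -1.77 ± 0.07 (adjusted p = 4.2e-19), and Eif4ebp2, an inhibitor of cap-dependent translation, fell by 1.73 ± 0.07. These regulators of RNA and translation were lower than after digestion as well, by 1.78 to 2.69. Among the 8 deeper libraries Pabpc1 ran from 45.4 to 49.3 and Eif4ebp2 from 73.4 to 82.7, across all ramp rates and fragment lengths.

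Repeat words were counted across coding transcripts to show how far they coincided with the losses. The 4 words were chosen from these data. They came from comparing 86 coding genes that fell by at least 1.5 on the log2 scale with 4361 within 0.3 of no change. The 4361 were limited to transcripts of 2051.5 to 8859.5 bases and the 86 were not, so length was not matched. The shares describe the data and carry no test. Of the 86, 43% held at least 1 of GCAGCAGCAGCA, CCCCCACCCCCA, GCCGCCGCCGCC and TCCTCCTCCTCC, against 8.81% of the 4361. Among all 12175 coding genes with at least 80% unique sequence, 14.5% of those with none of the words were lower after pull-down, 33.2% of those with 1 and 58.1% of those with 2 or more, and the median log2 fold changes were 0.09, -0.18 and -0.49. Median transcript length also rose across these classes, from 3422 through 4618 to 5516 bases.

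The words were taken in the orientation in which they recur among the losses, and the shares include the 86 genes, so the shares of a word and of its reverse complement are given side by side as a description and not compared. GCAGCAGCAGCA stood in 388 transcripts (3.19%), of which 35.8% fell and 26 rose, and its reverse complement TGCTGCTGCTGC stood in 284, of which 21.5% fell and 36 rose. TCCTCCTCCTCC stood in 249 (2.05%), of which 40.2% fell, and its reverse complement GGAGGAGGAGGA in 498, of which 27.3% fell. The corresponding values were those of CCCCCACCCCCA (297 transcripts, 2.44%, 35.7% fell) and TGGGGGTGGGGG (171, 30.4%), and of GCCGCCGCCGCC (379, 3.11%, 40.4%) and GGCGGCGGCGGC (533, 35.1%). In the longest quintile of transcripts, the median log2 fold change was -0.43 with GCAGCAGCAGCA and -0.21 without, and -0.44 with TCCTCCTCCTCC and -0.22 without. The words overlap in some transcripts, such as Zfhx3, which holds all 4.

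**Figure D3:**
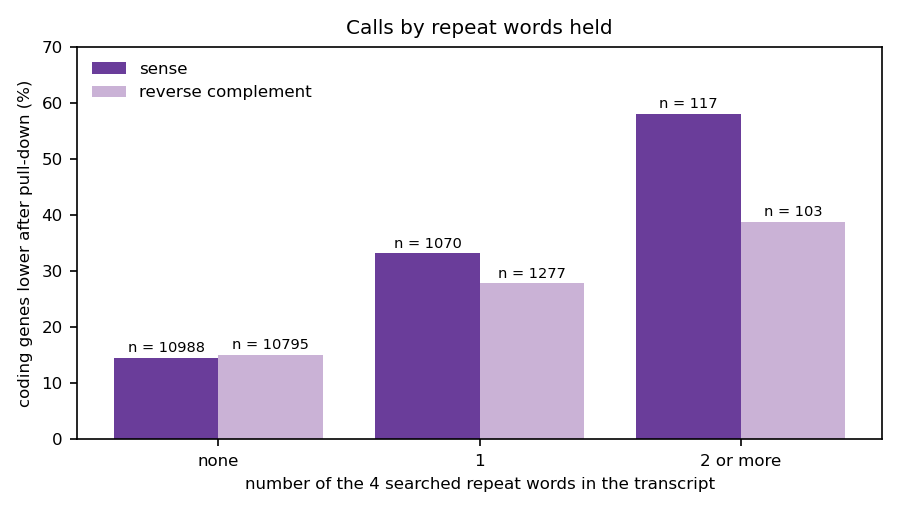
Share of coding genes called lower after pull-down (%, vertical axis) by how many of the 4 repeat words the transcript holds, counted in the transcript's own strand (dark bars) and for the reverse complements (light bars), with the number of genes above each bar. The share rises from 14.5 to 58.1% for the words themselves and from 15.0 to 38.8% for their reverse complements, and since only the words themselves were chosen from the losses, dark and light bars are not compared.

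Few genes shared long sequence with rRNA. Exact stretches of at least 20 bases in common with an annotated rRNA transcript were found in sense in 24 tested genes, of which 4 rose and 5 fell, and in antisense in 19, of which 2 rose and 5 fell, that is 20.8% and 26.3% lower against 15.3% of all genes. Of the 5 genes with at least 50 bases in sense, none passed the test in either direction. The longest was a run of 119 bases shared with a 5S rRNA transcript in the 3′ UTR of Tmem38b, an endoplasmic reticulum cation channel gene. Its first 30 bases, at chr4:53860652-53860681 on the plus strand of GRCm38 and all in capitals because all are shared, read as follows.
Tmem38b: GTCTACAGCCATACCACCCTGAACACGCCC
Tmem38b had 25.5, 28.1 and 25.4 normalised CPM in unselected RNA and between 16.3 and 24.4 after pull-down, a log2 fold change of -0.18 ± 0.10 (adjusted p = 0.183), which passed with only the 3 medium-fragment pull-down libraries (-0.23, adjusted p = 0.035). Sp100, a nuclear body protein gene with 104 shared bases, gave -0.20 (adjusted p = 0.227), and -0.34 (adjusted p = 0.039) in the same medium-fragment fit. Of the 4 genes with at least 50 bases in antisense, 1 rose and 1 fell. Slco2a1, a prostaglandin transporter gene with 104 such bases, fell by 0.97 ± 0.08. Hddc2, with 113, was called higher (adjusted p = 0.014) at very low levels, from 0.140 ± 0.242 normalised CPM (SD, n = 3) in unselected RNA to between 0.575 and 0.934 after pull-down.

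Short transcripts were more often gained than lost and long ones more often lost than gained, while most in every length class did not pass the test. The 12175 coding genes were divided into quintiles by the length of their longest annotated transcript, which need not be the one present in liver. Among the shortest, of 204 to 2109 bases, 38.6% were higher and 4.23% lower after pull-down, with a median log2 fold change of 0.36. The next 3 quintiles had 25.3, 16.5 and 9.20% higher genes, and 7.75, 13.2 and 19.9% lower ones. Among the longest, of 5469 bases and more, 3.53% were higher and 37.7% lower, with a median of -0.22. The order was present within each quintile of GC content and each quintile of level, where the shortest transcripts had medians of 0.20 to 0.43 and the longest of -0.10 to -0.31.

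For a value per library, the median log2(CPM + 0.5) of the shortest quintile was subtracted from that of the longest. This length difference was 1.49, 1.57 and 1.46 in the unselected libraries and ranged from 0.789 to 0.994 in the pull-down libraries, the lowest being the low-depth library. The groups did not overlap, with means of 0.918 ± 0.062 (SD, n = 9) and 1.51 ± 0.057 (SD, n = 3). The difference of -0.59 had an exact two-sided permutation p of 0.0045, the smallest that this design allows, and 0.0091 after Benjamini-Hochberg adjustment over the length and GC comparisons. With only the 3 medium-fragment pull-down libraries the difference was -0.55, and the exact p of 0.1 is again the smallest possible. Digestion libraries, which share the input amount with pull-down, had 1.61 ± 0.048 (SD, n = 9), and differed from pull-down by an exact permutation p of 4.1e-05 (two-sided). With libraries paired by ramp and fragment length, all 9 differences were below 0, with a mean of -0.69 ± 0.058 (SD, n = 9) and an exact sign-flip permutation p of 0.0039, the smallest that 9 pairs allow. The same quantity for GC content, richest minus poorest quintile, was -0.71 ± 0.39 (SD, n = 9) after pull-down and -0.87 ± 0.15 (SD, n = 3) without selection, and did not differ beyond the spread (exact two-sided permutation p = 0.48).

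**Figure D4:**
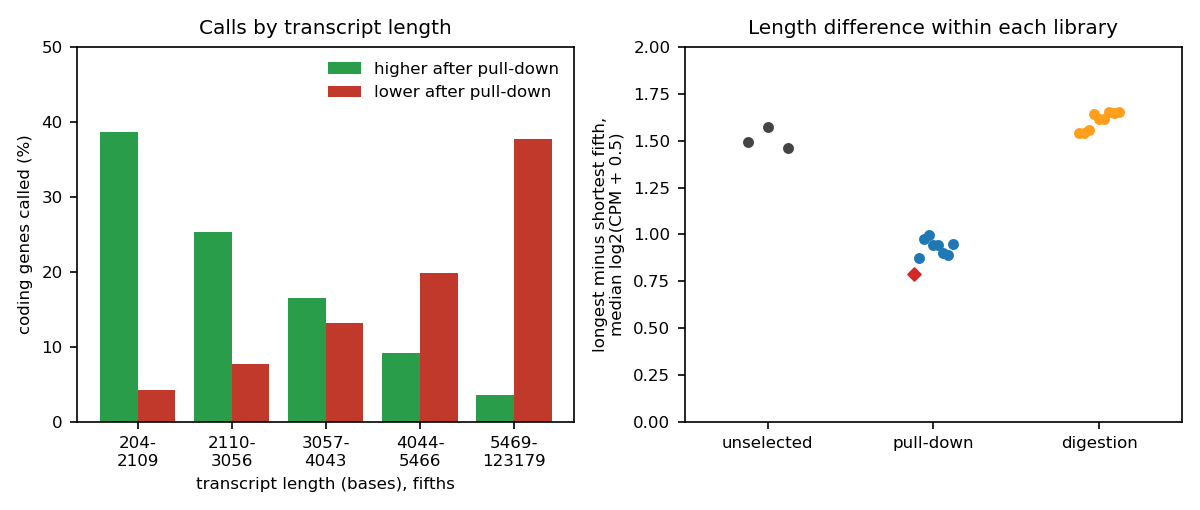
Left, share of coding genes called higher (green) or lower (red) after pull-down (%) in quintiles of transcript length in bases; right, the median log2(CPM + 0.5) of the longest quintile minus that of the shortest in each library, with the low-depth library as a red diamond. The share of higher genes drops from 38.6 to 3.53% across the quintiles, and all pull-down points lie below 1 while all others lie above 1.4.

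Among functional groups, genes for ribosomal proteins and for the nuclear-encoded respiratory chain were mostly gained. Of 81 cytosolic ribosomal protein genes 72 rose and 1 fell, with a median log2 fold change of 0.61. Of 80 nuclear-encoded oxidative phosphorylation genes 66 rose and 3 fell, with a median of 0.56. The shares that rose, 88.9 and 82.5%, compare with 17.5% of all genes, and those that fell, 1.23 and 3.75%, with 15.3%. Both lists are of short transcripts, with median lengths of 1094 and 1088 bases against 3151 for all genes tested. Rpl4 had 202, 209 and 196 normalised CPM in unselected RNA and 221, 287 and 304 (lowest, median, highest) after pull-down, without overlap (log2 fold change 0.47 ± 0.07, adjusted p = 2.1e-06). Rpsa rose by 0.70 ± 0.07 and Rps2 by 0.62 ± 0.11. Rps16 was the fall, by 0.56 (adjusted p = 9.7e-04) with overlapping groups, and it did not pass without ramp and length as covariates (-0.44, adjusted p = 0.084). Rps27, from under 1 normalised CPM to a median of 49.1, ranged from 1.87 to 149 between pull-down libraries and lost its call when any 1 unselected library was left out (adjusted p of 0.107 to 0.112).

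Atp5b, a subunit of the ATP synthase, rose from 570, 561 and 587 normalised CPM to between 713 and 858, a log2 fold change of 0.52 ± 0.06 (adjusted p = 2.6e-08). Cycs, cytochrome c, fell by 0.93 (adjusted p = 8.6e-04) and overlapped, and did not pass without covariates (-0.75, adjusted p = 0.076). The nuclear and the mitochondrial messengers of the same respiratory complexes thus had medians of opposite sign, 0.56 and -1.50. Of 63 translation factors, 21 rose (33.3%, against 17.5% of all genes) and 12 fell (19.0%, against 15.3%). Eef1a1, the elongation factor that brings aminoacyl-tRNA to the ribosome, rose by 0.53 ± 0.06 from 2208, 2157 and 2175 to a median of 3236. Eif1, which selects the start codon, fell by 2.41 ± 0.08 from 153, 157 and 140 to between 23.8 and 37.0 (adjusted p = 1.5e-20). Eef2 rose by 0.35 (adjusted p = 0.025), but its groups overlapped, and it moved to 0.23 without the low-depth library (adjusted p = 0.014). It did not pass without unselected replicate 2 (0.30, adjusted p = 0.118), with unselected batch 1 (0.19, adjusted p = 0.265), with the 12 libraries alone (0.38, adjusted p = 0.250) or in DESeq2 (0.30, adjusted p = 0.065).

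Secreted proteins, the main products of hepatocytes, were mostly gained. Of 22 plasma protein genes 17 rose and 2 fell, and of 16 apolipoprotein genes 13 rose and none fell (14 and 1 without the low-depth library). Of 12 genes of the Serpina1 and Serpina3 clusters 9 rose and none fell, and of 41 complement and coagulation genes 28 rose and 4 fell. The shares that rose, 77.3, 81.2, 75.0 and 68.3%, compare with 17.5% of all genes, of which 15.3% fell. Alb, albumin, had 37768, 37959 and 37339 normalised CPM in unselected RNA and 33574, 46055 and 49182 after pull-down. Only the low-depth library was below the unselected ones, and the log2 fold change was 0.27 ± 0.08 (adjusted p = 0.014), or 0.32 without it, but did not pass with the 12 libraries fitted alone (0.23, adjusted p = 0.187). Trf, transferrin, rose by 0.55 ± 0.07 and Fgb, the fibrinogen beta chain, by 0.46 ± 0.06, both without overlap. Apoe rose by 0.61 (adjusted p = 0.0072), and by 0.41 without the low-depth library, where it was highest at 15713 against 8274 at most in the other 8, and it did not pass with the 12 libraries alone (0.67, adjusted p = 0.112). Apob, whose transcript of 13934 bases is the longest of the apolipoproteins named here, did not pass (-0.25, adjusted p = 0.173, or -0.14 and 0.223 without the low-depth library), except with only the 3 medium-fragment pull-down libraries (-0.21, adjusted p = 0.0017).

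Rbp4, the plasma carrier of retinol, stood out in these lists by its fall. Its level went from 914, 916 and 931 normalised CPM to 353, 376 and 568, a log2 fold change of -1.23 ± 0.10 (adjusted p = 4.7e-11), and it was lower than after digestion by 1.35. Among complement and coagulation genes, C3 fell by 0.28 from 5618, 5360 and 5483 to between 3840 and 4962, and F5, coagulation factor V, fell by 0.46 from 657, 696 and 670 to between 400.5 and 533. C3 did not pass with the 12 libraries alone (-0.30, adjusted p = 0.077). Both groups of libraries were apart in these 3 genes. By plain library totals Rbp4, C3 and F5 lay 1.27, 0.33 and 0.51 below the median of all genes.

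Metabolic enzymes were also gained more often than lost. Of 22 genes of the urea cycle and amino acid metabolism 17 rose and 2 fell, and of 20 of glucose metabolism 12 and 3. Of 52 phase II conjugation enzymes 29 rose and 3 fell. Of 27 genes of cholesterol and bile acids 11 rose and 3 fell, and of 30 of fatty acid and ketone metabolism 15 and 4. The shares that rose, 40.7 to 77.3%, compare with 17.5% of all genes. Those that fell, 5.77 to 15.0%, compare with 15.3%, and the glucose list was close to that share. Of 67 cytochromes P450, 16 rose (23.9%, against 17.5% of all genes) and 5 fell, but 28 rose and 5 fell without the low-depth library, and the fatty acid list likewise moved to 21 and 6. Cyp3a11, Cyp2e1 and Cps1 were among the genes called only without that library. Cyp2e1 had 2853, 2928 and 2873 normalised CPM in unselected RNA, 2006 in the low-depth library and 2954 to 3364 in the other 8, so that its log2 fold change was 0.09 (adjusted p = 0.548) with that library and 0.18 (adjusted p = 7.9e-04) without it. Cyp3a11 changed in the same way from 0.25 (adjusted p = 0.252) to 0.38 (adjusted p = 0.0019), and Cps1, the first enzyme of the urea cycle, from 0.14 (adjusted p = 0.216) to 0.22 (adjusted p = 1.5e-06).

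Fabp1, the liver fatty acid binding protein, rose from 1644, 1717 and 1638 normalised CPM to between 2358 and 3931 (log2 fold change 0.70 ± 0.07, adjusted p = 1.1e-09) and was 3.04 higher than after digestion. Gstp1, a glutathione transferase, rose by 0.58 ± 0.05, Bhmt, which remethylates homocysteine, by 0.62 ± 0.06 and Tpi1, triosephosphate isomerase, by 0.55 ± 0.05, all without overlap. Srebf2, the regulator of cholesterol synthesis genes, fell by 1.01 ± 0.11 from 36.0, 29.4 and 33.9 to between 13.9 and 22.1. The ferritin chains parted. Fth1, the heavy chain, fell by 1.21 ± 0.15 (adjusted p = 1.7e-07) from 555, 554 and 567 to a median of 219, and Ftl1, the light chain, rose by 0.60 ± 0.09 (adjusted p = 3.3e-06) from 1595, 1464 and 1612 to a median of 2424, although only 42.3% of the sequence words of Ftl1 are its own.

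Among regulators, clock genes were lost more often than gained. Of 18 circadian clock genes 1 rose and 8 fell, or 5.56 and 44.4%, against 17.5 and 15.3% of all genes. Their median was -0.22, or -0.38 with the 12 libraries fitted alone, and their median transcript length 4320 bases. Nr1d1, a nuclear receptor of the clock, fell by 1.14 ± 0.15 (adjusted p = 2.4e-07). Its level was 105, 89.2 and 103 normalised CPM in unselected RNA, 38 to 49.3 in 8 pull-down libraries and 101 in the low-depth library, so that only that library overlapped. Of 20 immediate early genes none rose and 3 fell (15.0%, against 15.3% of all genes). Egr1, a zinc finger factor, fell by 1.67 ± 0.13 from 16.7, 17.9 and 19.3 to between 4.91 and 13.9. Of 51 KRAB-type zinc finger genes 1 rose and none fell, and their median was 0.01. The replication-dependent histone genes, whose messengers end in a stem-loop and have no poly(A) tail, rose in 5 of 58 cases (8.62%, against 17.5% of all genes) and fell in none. In the remaining lists, 5 of 9 replacement histone genes rose (55.6%) and none fell, and 6 of 11 MHC class I genes rose (54.5%) and 1 fell. Of 20 major urinary protein genes 2 rose (10.0%), or 4 without the low-depth library, and none fell. Of 7 genes of the Rdh16 family 6 rose (85.7%) and 1 fell. The shares of all genes were again 17.5 and 15.3%. Of 13 metal handling genes 3 rose and 3 fell (23.1% each, near the shares of all genes), and neither of the 2 spliceosomal snRNAs of that list passed.

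**Figure D5:**
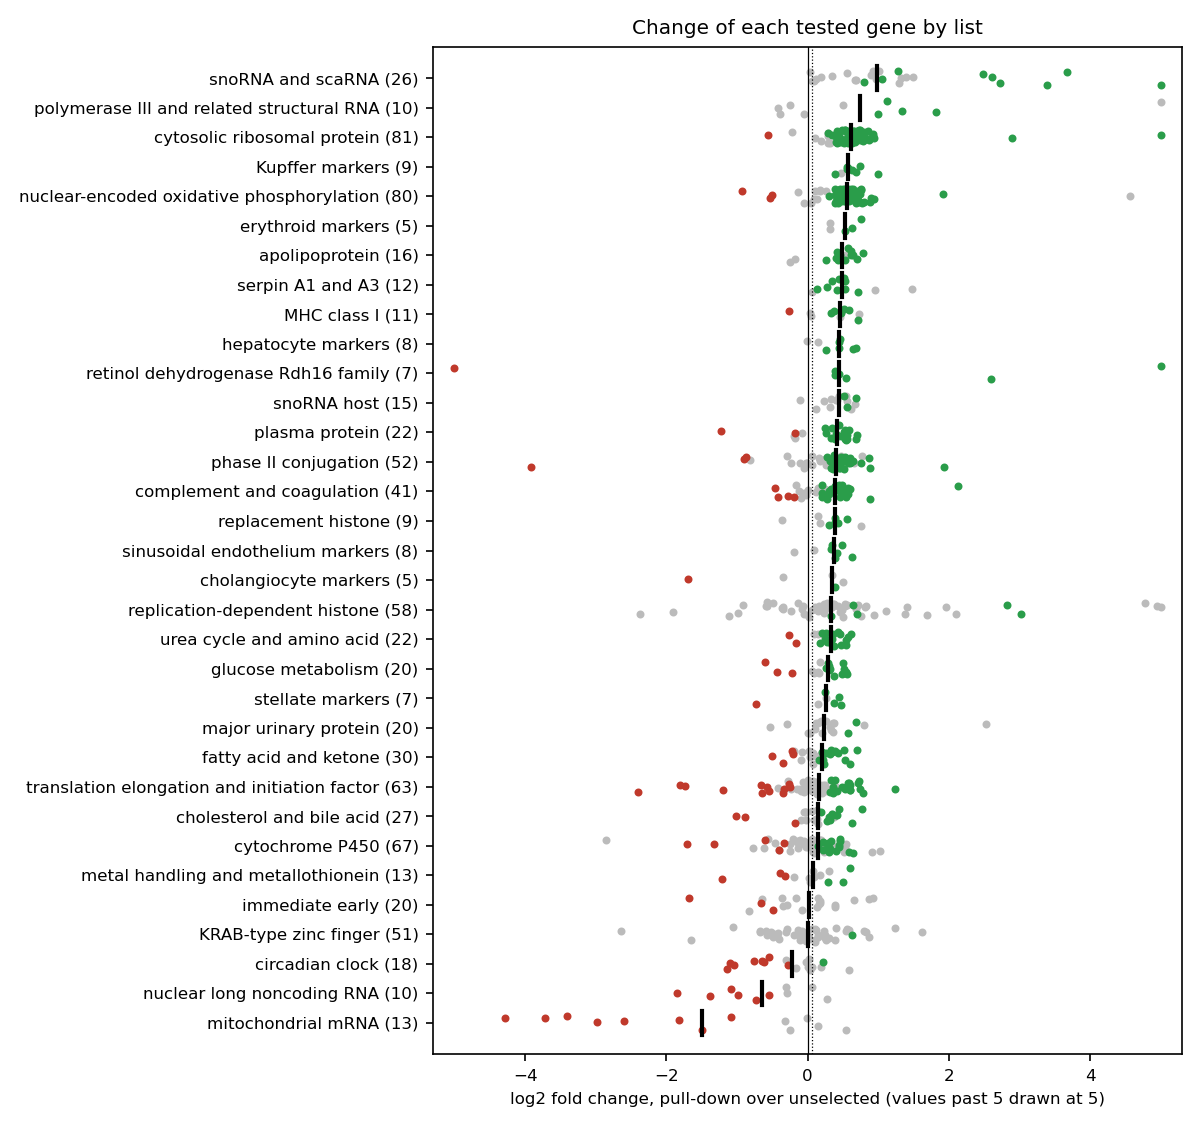
Log2 fold change (pull-down over unselected) of each tested gene in the functional and cell type marker lists that have at least 5 tested genes, with the number of tested genes in parentheses; green points rose, red points fell, grey points did not pass an adjusted p of 0.05, thick bars are medians and the dotted line is the median of all genes. The snoRNA and scaRNA, polymerase III and ribosomal protein lists lie at the top of those drawn, with medians of 0.99, 0.74 (0.46 without the low-depth library) and 0.61, and nuclear long noncoding RNAs and mitochondrial mRNAs at the bottom, with -0.64 and -1.50.

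Among coding genes with at least 80% unique sequence, no overlap and a mean of at least 5 normalised CPM in the higher group, the largest gain was smaller than the largest losses. Zap70, a kinase of T cell receptor signalling, rose from 2.30, 2.29 and 2.30 normalised CPM to between 5.94 and 12.3 (log2 fold change 1.43 ± 0.19, adjusted p = 4.1e-07). Of the other 7 of the 8 largest, Pdcd2l rose by 1.20, Trappc2l, a subunit of a vesicle tethering complex, by 1.15, Wrap73 by 1.07, Gpn3 by 1.04, Cenpv by 1.03, Snrpd2, a core protein of spliceosomal particles, by 1.00, and Lamtor4, a subunit of the Ragulator complex on lysosomes, by 1.00. All but Cenpv were also higher than after digestion, by 0.46 to 1.19, and Cenpv differed from digestion by -0.0063 (adjusted p = 0.943). The transcript of Wrap73 has 3959 bases and those of the other 7 have 980 to 2245.

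Markers of several liver cell types rose. Of 8 hepatocyte markers 6 rose, of 9 Kupffer cell markers 8, of 8 sinusoidal endothelial markers 6 and of 7 stellate cell markers 4. Their medians were 0.44, 0.58, 0.37 and 0.27, with 1 fall, in the stellate list. The shares that rose, 75.0, 88.9, 75.0 and 57.1%, compare with 17.5% of all genes. Of 5 cholangiocyte markers 1 rose and 1 fell (20.0% each, near the 17.5 and 15.3% of all genes). Kupffer markers made up 0.0308 to 0.0415% of the counts outside rRNA after pull-down and 0.0230 to 0.0237% in unselected RNA. Clec4f, a lectin of Kupffer cells, rose by 0.74 ± 0.09 from 32.6, 35.2 and 37.5 normalised CPM to between 54.6 and 76.3. Of 5 erythroid markers 3 rose (60.0%), with a median of 0.52, and all 5 were higher than after digestion, by a median of 6.38 on the log2 scale. They made up 0.0565 to 0.0753% of the counts outside rRNA after pull-down and 0.0446 to 0.0466% in unselected RNA. After digestion they made up 0.0122 to 0.0131%, below both. All of these libraries were prepared from the liver of 1 animal, and the part of other cell types in the gene lists was not tested.

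Some very large fold changes belonged to genes that share most of their sequence with others, and most shrank when the sharing genes were added up. Rdh16f1, a retinol dehydrogenase with no sequence word of its own, went from 30.6, 28.6 and 29.8 normalised CPM to 0 in most pull-down libraries and 0.280 at most. The sum over it and 4 related genes, led by Rdh16, had medians of 107 and 138 and a difference of mean log2 values of 0.33. Gm28635, a readthrough transcript sharing 94.7% of its words with the catenin gene Ctnnd1, went from 57.1, 30.4 and 53.6 to 0 in most libraries and 1.52 at most, while the sum with Ctnnd1 moved by -0.24. Its call was lost without pull-down replicate 4 (log2 fold change -6.50, adjusted p = 1). Gm20431, which overlaps Ube2v1, was at 0 in most pull-down libraries, its sum moved by 0.17, and it did not pass with unselected batch 1 (adjusted p = 1). Gm28539 was at 0 in 8 pull-down libraries and at 4.09 in the low-depth library, and its sum with Hira moved from a median of 13.6 to 6.33. It did not pass in DESeq2 (-1.92, adjusted p = 0.814). After digestion the medians of Rdh16f1, Gm28635, Gm20431 and Gm28539 were also 0, so their near absence was not particular to pull-down.

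Among the gains of this kind, those of Rsc1a1, Gm49342 and AL731706.1 started from 0 counts and hold only as lower bounds. Rsc1a1, which lies wholly inside Ddi2 sequence, had no counts in unselected libraries and 3.36 to 29.3 normalised CPM after pull-down, at least 23.7-fold higher against 3 counts per library, but the sum with Ddi2 moved by -0.23, and the call was lost when pull-down replicate 4 (adjusted p = 0.061) or any 1 unselected library (adjusted p of 0.095 to 0.098) was left out. Gm49342 was at least 16.1-fold higher and its sum with Pnp and Pnp2 moved by 0.58. AL731706.1 was at least 10.4-fold higher and its sum with Mkks and AL731706.2 moved by 0.25. Cfb, complement factor B, rose by 2.13 while the readthrough gene Gm20547, with which it shares 75.5% of its words, fell by 8.12, and their sum moved by 0.40. In the Ugt1a cluster, whose bilirubin and drug glucuronosyltransferases share their last exons, Ugt1a7c fell by 3.92 and Ugt1a6a rose by 1.93. The family sum moved by 0.23, with medians of 647 and 797. After digestion Gm49342 ran from 4.26 to 7.76 normalised CPM, AL731706.1 from 3.79 to 5.43 and Cfb from 507 to 548. Ugt1a7c ran from 6.20 to 7.42 there and Ugt1a6a from 88.9 to 99.3. Each of these ranges lay apart from the unselected values, on the side of pull-down, whereas the digestion median of Rsc1a1 was 0. Of 635 tested genes with under 20% unique sequence, 69 rose and 54 fell, or 10.9% and 8.50%, against 17.5% and 15.3% of all genes.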

How the data were processed

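The authors deposited 1 table of estimated counts (expected counts) for 51368 genes in 34 libraries, made with Salmon 1.9.0 on GRCm38, with UMI-tools 1.1.1 and R 4.4.0 also named, per the submitters' processing notes. The strand setting is not given in the sources used here. The counts were rounded, and 50820 identifiers matched GENCODE M21. All 33 liver libraries entered edgeR 4.0.16 (R 4.3.3) with filterByExpr, TMM, ramp and fragment length as covariates, and quasi-likelihood tests with Benjamini-Hochberg adjustment over 15422 genes. A normalised CPM is a count divided by the TMM-scaled total. DESeq2 1.42.0 and the other settings named in the closing section were alternatives, and the fits were tested on simulated data.

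Uniqueness is the share of a gene's 31-base words found in no other gene. Transcript lengths, GC content and repeat words are those of the longest annotated transcript of each gene. Where sharing genes were summed, the mean log2 of the summed normalised CPM was compared between groups. Named coding genes had an adjusted p under 0.05 with and without the low-depth library, no overlap between groups, a mean of at least 5 normalised CPM and at least 80% unique sequence. The 8 largest changes each way qualified, with 5 noncoding genes each way, 4 coding genes each way under 20% unique, 3 highest members and the largest changes of each list, 8 genes sharing sequence with rRNA, and a fixed set. The members and lists were chosen with earlier results of these data known, and the repeat words, the quintile splits by GC and level, and the bounds were chosen after seeing the data. A floor of 3 counts per library was used for genes at 0. Intervals and floors cover counting error only. Some genes that met the naming rule are not reported here.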

Additional observations from a re-analysis of the deposited data

Results flagged for a closer look

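For each named gene and for the length and GC differences, the highest or lowest of the 9 pull-down libraries was compared with the rest, and 39 of these 87 measures had a library whose gap to its neighbour exceeded Dixon's 95% critical share of the whole range, where chance gives about 1 in 20. The low-depth library was the library apart for 24 genes on the high side and 11 on the low side. All values here are normalised CPM, and the cause of the deviations was not tested.

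Many transcripts that pull-down removed were highest in the low-depth library. CT010467.1 stood at 117055, Lars2 at 18849, mt-Nd6 at 43.3 and mt-Nd5 at 637. Coding genes that fell stood at 26.2 for Setd1b, 18.8 for Taf15, 107 for Kmt2d and 32.7 for Zfhx3. The other such values were 112 for Eif4ebp2, 36.0 for Pcbp1, 42.5 for Pcbp2, 71.9 for Pabpc1, 568 for Rbp4, 454 for Fth1, 13.9 for Egr1 and 101 for Nr1d1. In each of these genes the low-depth value lay between the other 8 pull-down libraries and the unselected ones or, for Nr1d1, within the unselected range.

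Some transcripts that rose were also highest there. Rn7sk stood at 17110, Rpph1 at 3696, Zap70 at 12.3, Rpsa at 307, Apoe at 15713 and Apoa1 at 6073. Of the genes that share sequence and fell, Gm28539 stood at 4.09 and Ugt1a7c at 13.1.

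Several hepatocyte messengers were lowest in the low-depth library. Trf stood at 10082, Apob at 5414, Serpina3k at 3888, Cyp3a11 at 2520, Cyp2e1 at 2006, Cps1 at 3124 and Bhmt at 1014. The other low values were 221 for Rpl4, 72.7 for Ugt1a6a, 16.3 for Tmem38b and 0 for Ppnr.

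Single libraries stood apart for the remaining 4 genes. Snrpd2 was highest in pull-down replicate 2 (17.2), Gm28635 in replicate 6 (1.52), Gm20431 in replicate 8 (3.85) and Rdh16f1 in replicate 9 (0.280).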

How the results depend on the processing

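The counts of 2692 higher and 2360 lower genes stayed within 1.5 times under DESeq2 (2038 and 2922), TMM without rRNA (2939 and 2222), no filter (2775 and 1971), no covariates (2769 and 2424), only the 3 medium-fragment libraries (2313 and 2728), unselected batch 1 (2430 and 2386) and genes with at least 80% unique sequence (2335 and 2076). Leaving out 1 pull-down library gave 2551 to 2925 and 2293 to 2464, and leaving out 1 unselected library 2116 to 2296 and 1947 to 2006. Against digestion, the counts without the low-depth library were 5642 and 5400. Fitting the 12 libraries alone gave 1150 and 1663, so that more genes were lower than higher. Requiring a log2 fold change of at least 1 left 190 and 615, and 655 and 1088 against digestion. Plain library totals gave 14635 and 42, and thinning every library to the smallest total, which uses fewer counts, gave 107 and 15. The cause was not tested for the other changes.

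The length difference had a range of -0.62 to -0.56 without 1 unselected library and was -0.57 without the low-depth one. With only the 3 medium-fragment pull-down libraries it was -0.55 and could not pass. The GC difference had a range of 0.075 to 0.22 without 1 unselected library, 0.056 without the low-depth one and -0.047 with unselected batch 1, never passing.

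Under library totals the log2 fold changes of 26 genes turned positive, though all stayed below the all-gene median of 2.31. They were 0.76 for mt-Cytb, 1.94 for mt-Co1, 1.27 for Malat1, 1.18 for Neat1, 1.53 for Kcnq1ot1, 0.41 for Jpx, 0.12 for Ppnr, 0.49 for Kmt2d, 0.52 for Zfhx3, 0.53 for Eif4ebp2, 0.12 for Pcbp1, 0.025 for Pcbp2 and 0.49 for Pabpc1. The rest were 1.70 for Rps16, 1.33 for Cycs, 1.03 for Rbp4, 2.01 for Apob, 1.98 for C3, 1.80 for F5, 0.56 for Cyp4a31, 1.25 for Srebf2, 1.05 for Fth1, 0.59 for Egr1, 1.13 for Nr1d1, 2.08 for Tmem38b and 2.06 for Sp100. There, mt-Rnr1 (-0.14, adjusted p = 0.394) and Eif1 (-0.15, adjusted p = 0.056) lost their calls. After thinning, 7 changed sign, with 2.79 for Stambp, -0.14 for Snrpd2, 8.69 for Rps16, 1.24 for Cycs, 0.38 for C3, 0.18 for F5 and 6.18 for Egr1, and 50 of the 72 that had passed no longer did.

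No paired analysis was possible against unselected RNA because the unselected libraries do not share the combinations of ramp and fragment length that the replicate numbers of the pull-down libraries stand for. Against digestion, a fit with these combinations as a replicate block, chosen after seeing the data, gave 5110 higher and 4986 lower genes.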

Other observations

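Among the pull-down libraries, several of the gained or retained RNAs also differed by fragment length. These genes were chosen after their values were seen, and no test was made. Gm25117, Snora73a and Scarna13, all snoRNAs or scaRNAs, were highest in the 2 deeper long-fragment libraries. The H/ACA snoRNA Gm25117 had 22.1 and 21.1 normalised CPM there, with the medium and the fast ramp, and 6.71 to 11.3 in the 6 medium- and short-fragment libraries. Snora73a had 190 and 176 against 70.7 to 90.5, and Scarna13 had 66.9 and 71.2 against 29.4 to 32.8. In these examples the 2 values lay outside the range of the other 6 deeper libraries. The low-depth library, which also has long fragments, had the lowest pull-down values of Gm25117 (6.54) and Snora73a (61.3), whereas for Scarna13 it stood at 47.4, also above the 6.

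The mitochondrial rRNAs followed the same order. The 16S rRNA mt-Rnr2 had 177624 and 194347 normalised CPM in the deeper long-fragment libraries, 136952 to 153096 in the 3 with medium fragments and 102129 to 112671 in the 3 with short fragments. The 12S rRNA mt-Rnr1 had 30878 and 32110, 20222 to 22083 and 16089 to 17668. The messenger mt-Nd6 had 20.0 and 18.3 in the deeper long-fragment libraries and 3.85 to 7.65 in the other 6. The low-depth library stood at 68434 for mt-Rnr2 and 43.3 for mt-Nd6, so it was not close to its 2 counterparts in either.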
